A study of Mus musculus with 24 samples.

Results

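Brown fat, which burns fuel to make heat, was taken from between the shoulder blades and profiled by sequencing of polyadenylated RNA in 6 Th-Cre mice given DCZ and 6 Th-Cre mice given saline, which are 12 of the 24 libraries of the study. The 12 were taken by their labels, and each comes from a separate mouse with a name of its own. Th-Cre DCZ and Th-Cre saline mice are labelled with the strain B6.129X1- Tht1(cre)Te/Kieg, and carry Cre recombinase under the control of the tyrosine hydroxylase gene, Th, so that Cre acts where Th is active, as in cells that make catecholamines. The other 12 libraries are 6 WT DCZ and 6 WT saline mice of C57Bl/6J. Every group held 3 males and 3 females aged 6 to 8 months, and tissue was taken 30 minutes after DCZ or saline. DCZ, deschloroclozapine, is a ligand of engineered muscarinic receptors. The receptor, the cells that carried it and the dose are not stated in the sources used here, and all cells of the depot contribute to each library.

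Sympathetic nerves release noradrenaline onto brown adipocytes. There it acts on beta adrenergic receptors, which raise cAMP and activate protein kinase A, and this kinase phosphorylates the transcription factor CREB, which binds the cAMP response element (CRE) in promoters. Immediate early genes, which code for transcription factors such as Fos and Jun and for phosphatases such as Dusp1, are transcribed within minutes of such a signal and of many others, among them growth factors, heat, stress and tissue handling. The comparison asks which transcripts of the depot differed after DCZ in mice with Cre in Th-expressing cells.

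Promoters of 4 of the leading genes are printed to show which of them hold the letters of the cAMP response element. Each is the 250 bases before the annotated start from RefSeq on GRCm38.p6, 5′ to 3′ on the strand of the gene, and capitals mark the full element TGACGTCA or its core TGACG on either strand. The windows are chr17:26508473-26508722 (minus strand) for Dusp1, chr7:45526269-45526518 (minus) for Ppp1r15a, chr1:134079156-134079405 (minus) for Btg2 and chr4:95052223-95052472 (minus) for Jun.
Dusp1: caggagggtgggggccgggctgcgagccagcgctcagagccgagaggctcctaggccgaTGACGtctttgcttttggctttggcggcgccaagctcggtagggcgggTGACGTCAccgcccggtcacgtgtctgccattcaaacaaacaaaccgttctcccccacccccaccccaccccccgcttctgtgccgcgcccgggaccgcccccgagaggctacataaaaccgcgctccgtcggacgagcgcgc
Ppp1r15a: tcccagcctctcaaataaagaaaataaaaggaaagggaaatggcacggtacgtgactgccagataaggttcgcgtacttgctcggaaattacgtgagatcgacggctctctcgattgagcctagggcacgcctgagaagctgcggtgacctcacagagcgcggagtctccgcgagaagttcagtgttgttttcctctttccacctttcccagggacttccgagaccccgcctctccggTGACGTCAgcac
Btg2: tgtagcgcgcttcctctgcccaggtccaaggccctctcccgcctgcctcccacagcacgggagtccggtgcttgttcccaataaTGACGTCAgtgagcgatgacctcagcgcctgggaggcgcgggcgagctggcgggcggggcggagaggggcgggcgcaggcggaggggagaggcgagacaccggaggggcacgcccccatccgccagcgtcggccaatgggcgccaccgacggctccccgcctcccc
Jun: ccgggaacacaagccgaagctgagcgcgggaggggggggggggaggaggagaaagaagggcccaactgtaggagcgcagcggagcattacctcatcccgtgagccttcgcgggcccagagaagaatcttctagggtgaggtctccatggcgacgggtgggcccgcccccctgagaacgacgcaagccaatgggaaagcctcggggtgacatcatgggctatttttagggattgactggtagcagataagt
The full element stood 143 to 136 bases before the start of Dusp1, 12 to 5 bases before that of Ppp1r15a and 166 to 159 bases before that of Btg2. Dusp1 held a further core farther from its start, and the window of Jun held neither form. Only exact letters were searched, so a stretch that differs by 1 base, such as tgacatca in the window of Jun, was not counted. Both strands were searched, a full element also counts as a core, and a gene with several annotated starts counts when any of its windows matched. Over promoters of this length, 2.93% of the 10038 tested genes with an entry held the full element. Among the 30 genes with the smallest p below, 26 had a promoter entry, 20 of them higher and 6 lower after DCZ. The full element was in 3 of the 20 (15%) and in 0 of the 6. A core was in 9 of the 20 (45%) and in 2 of the 6 (33.3%), against 29.8% of all tested genes. The AP-1 motif TGANTCA, which Fos and Jun proteins bind, was in 1 of the 20 (5%), against 5.54% of tested genes, the heat shock motif GAANNTTC in 2 (10%), against 6.25%, and the serum response element in 1 (5%), against 1.5%. In the 6 lower genes the serum response element was in 1 (16.7%), and the AP-1 and heat shock motifs were in 0. These are matches of letters and no measure of binding.

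Total estimated counts were 12.7 to 22.9 M in Th-Cre DCZ libraries and 11.9 to 18.7 M in Th-Cre saline libraries, and 13129 of 36144 genes had enough reads to be tested. Levels are CPM, the estimated counts of a gene per M counts of its library after scaling, which compare libraries within a gene and not genes with each other. The summed level of 10 brown adipocyte markers ran from 12436 to 14142 CPM in Th-Cre DCZ libraries (median 13583 CPM), against 12628 to 15083 CPM in Th-Cre saline libraries (median 12931 CPM), so the labelled tissue was present in all of them. Th itself gave 1 read over the 24 libraries. None of 13 sympathetic neuron markers had enough reads to be tested, and Chrna3 was at 0 in all 12 Th-Cre libraries. Skeletal muscle markers were unevenly spread: the summed level of 16 of them ran from 58.9 to 728 CPM in Th-Cre DCZ libraries and from 66.2 to 1676 CPM in Th-Cre saline libraries, and all 16 had negative log2 fold changes (median -1.06), none of which passed the test. Their mean log2 CPM was above 1 in 2 Th-Cre DCZ libraries (DN2075 and DN2091) and 3 Th-Cre saline libraries (DN2086, DN2094 and DN2087). One Th-Cre saline male, DN2087, stood apart in early genes: the median deviation of 42 early genes from the saline mean was 0.40 on the log2 scale in this mouse, and 0.015 or less in each of the other 5 saline mice. Median log2 fold changes of other marker lists were 0.52 for erythroid cells (5 tested), 0.34 for Schwann cells (12), 0.18 for macrophages (12) and 0.048 for endothelium (12). They were 0.22 for white adipocytes (6), 0.16 for smooth muscle and pericytes (11) and 0.095 for fibroblasts and preadipocytes (12). Lymphocytes (10) had 0.021, neutrophils (4) -0.19 and mast cells (5) -0.26, and no marker of these lists passed the test. DN2087 is named below for some of the genes where it decides an overlap. For Trib1, Sik1, Fosl2 and Plk3 it was also the only saline library above the lowest DCZ library. Its 211 CPM of Egr1 was the saline maximum, the next saline library having 119 CPM. RNA from fewer cells of a type and less RNA per cell cannot be told apart in these bulk libraries.

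Dusp1, Ppp1r15a and Jun rose after DCZ in Th-Cre mice, at an adjusted p under 0.05, and no gene fell. These 3 genes are 0.0229% of those tested. They stayed past the threshold in each of the 12 fits that left out 1 Th-Cre library, while the count of called genes went up to 18 without the DCZ male DN2091, to 6 without the saline female DN2094 and to 5 without the saline male DN2087 or the DCZ female DN2207. Without the libraries with muscle transcripts 7 genes were called, the 3 among them. The order behind these 3 was less stable. Of the 30 genes with the smallest p, 11 were among the 30 smallest p in that fit and 16 in the Th-Cre libraries alone. With 1 Th-Cre library left out, 19 to 27 were. Below the threshold the order was lopsided towards higher levels after DCZ. Of the 10 genes with the smallest p, 8 were higher and 2 lower, of the first 30, 24 were higher and 6 lower, and of the first 100, 72 were higher and 28 lower. Of the first 1000, 615 were higher and 385 lower, and of all 13129 tested genes 50.2% had a positive log2 fold change, with a median of 0.00047. At an unadjusted p under 0.05, 465 genes (3.54%) were higher and 280 (2.13%) lower. An adjusted p under 0.1 held 11 higher and 3 lower genes, and one under 0.25 held 39 and 8. Effects were larger among the higher genes, with a median log2 fold change of 1.14 for the 24 higher and of -0.49 for the 6 lower genes of the first 30.

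**Figure D1:**
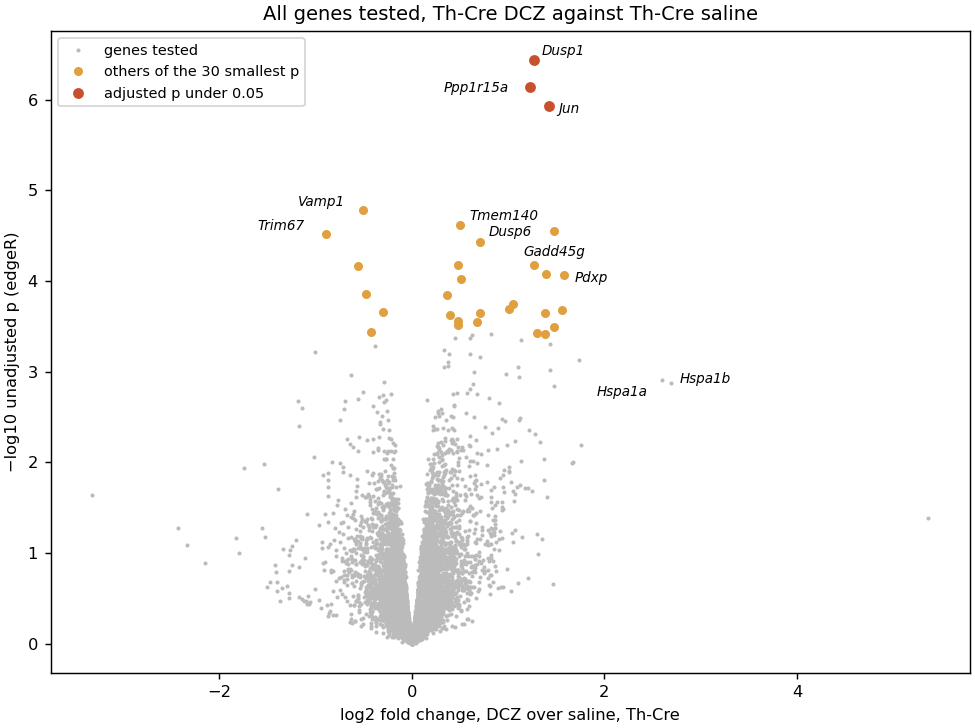
Log2 fold change of Th-Cre DCZ over Th-Cre saline (x) against -log10 of the unadjusted edgeR p (y) for the 13129 genes tested, with the 3 genes at an adjusted p under 0.05 in red and the rest of the 30 smallest p in orange. Of the 30 coloured genes, 24 lie on the positive side and 6 on the negative side.

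The MAP kinase phosphatases remove phosphate from ERK, p38 and JNK kinases, and 3 of them were among the first 30 genes. Dusp1, which acts mainly on p38 and JNK, ranged from 84.8 to 237 CPM (median 174 CPM) in Th-Cre DCZ libraries, against 62.4 to 87.8 CPM (median 65.4 CPM) in Th-Cre saline libraries. It rose by 1.27 ± 0.185 on the log2 scale (fold change ± SE, adjusted p = 0.00472), and 5 of the 6 DCZ libraries lay above every saline library, the exception being DN2091 at 84.8 CPM, below the saline male DN2087 at 87.8 CPM. Dusp6, a phosphatase of ERK, had 56.3 to 106 CPM (median 81.4 CPM) in Th-Cre DCZ, against 37.8 to 61.6 CPM (median 50.9 CPM) in Th-Cre saline libraries, with a log2 fold change of 0.71 ± 0.14 and an adjusted p of 0.0606. Here DN2072 alone of the DCZ mice lay within the saline range. Dusp5, a nuclear phosphatase of ERK, was near the detection limit, at 1.21 to 3.83 CPM in Th-Cre DCZ and 0.802 to 1.46 CPM in Th-Cre saline libraries (log2 fold change 1.30 ± 0.315, adjusted p = 0.162). Over the 9 tested phosphatases 1 rose, 7 had a positive log2 fold change and the median was 0.53. Of all tested genes 0.0229% rose and 50.2% were positive. Trib1, a pseudokinase that acts as a scaffold for protein degradation, had 125 to 151 CPM (median 133 CPM) in Th-Cre DCZ, against 54.7 to 138 CPM (median 85.4 CPM) in Th-Cre saline libraries, with a narrow DCZ group of which only 2 libraries passed the saline maximum. Errfi1, an inhibitor of the EGF receptor, had 38.8 to 56.6 CPM in Th-Cre DCZ and 25.9 to 36.2 CPM in Th-Cre saline libraries, groups that did not overlap. Its adjusted p was 0.452, and 0.01 in the edgeR fit of the Th-Cre libraries alone.

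AP-1 is a dimer of Jun and Fos family proteins. Jun ranged from 84.5 to 264 CPM (median 162 CPM) in Th-Cre DCZ libraries, against 45.1 to 118 CPM (median 53.9 CPM) in Th-Cre saline libraries. The saline maximum came from DN2087, and the next saline library had 55.8 CPM, so that all 6 DCZ libraries lay above the other 5 saline libraries. Jun rose by a log2 fold change of 1.42 ± 0.222 (adjusted p = 0.00514). Fos, its classic partner, spread far more: 33.7 to 190 CPM (median 97.1 CPM) in Th-Cre DCZ and 21.5 to 117 CPM (median 35.1 CPM) in Th-Cre saline libraries, and only 2 DCZ libraries exceeded the highest saline library, again DN2087. Its log2 fold change of 1.09 ± 0.434 had an adjusted p of 0.73. Jund, a broadly expressed member of the family, had 59.7 to 155 CPM (median 117 CPM) in Th-Cre DCZ and 54.2 to 106 CPM (median 65.8 CPM) in Th-Cre saline libraries (log2 fold change 0.64 ± 0.172, adjusted p = 0.273). Fosl2, an AP-1 subunit of slower kinetics, had 27.2 to 41.5 CPM in Th-Cre DCZ, against 19.7 to 27.5 CPM in Th-Cre saline libraries, with 5 DCZ libraries above the saline range (log2 fold change 0.68 ± 0.194, adjusted p = 0.366). Atf3, a stress-induced member of the same dimer family, had a log2 fold change of 1.48 ± 0.412 (adjusted p = 0.333) and 4 DCZ libraries above the saline range. All 8 tested genes of the list had positive log2 fold changes, beside 50.2% of all tested genes, and the median was 0.91. Of the 8, 1, Jun, rose, beside 0.0229% of all tested genes.

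**Figure D2:**
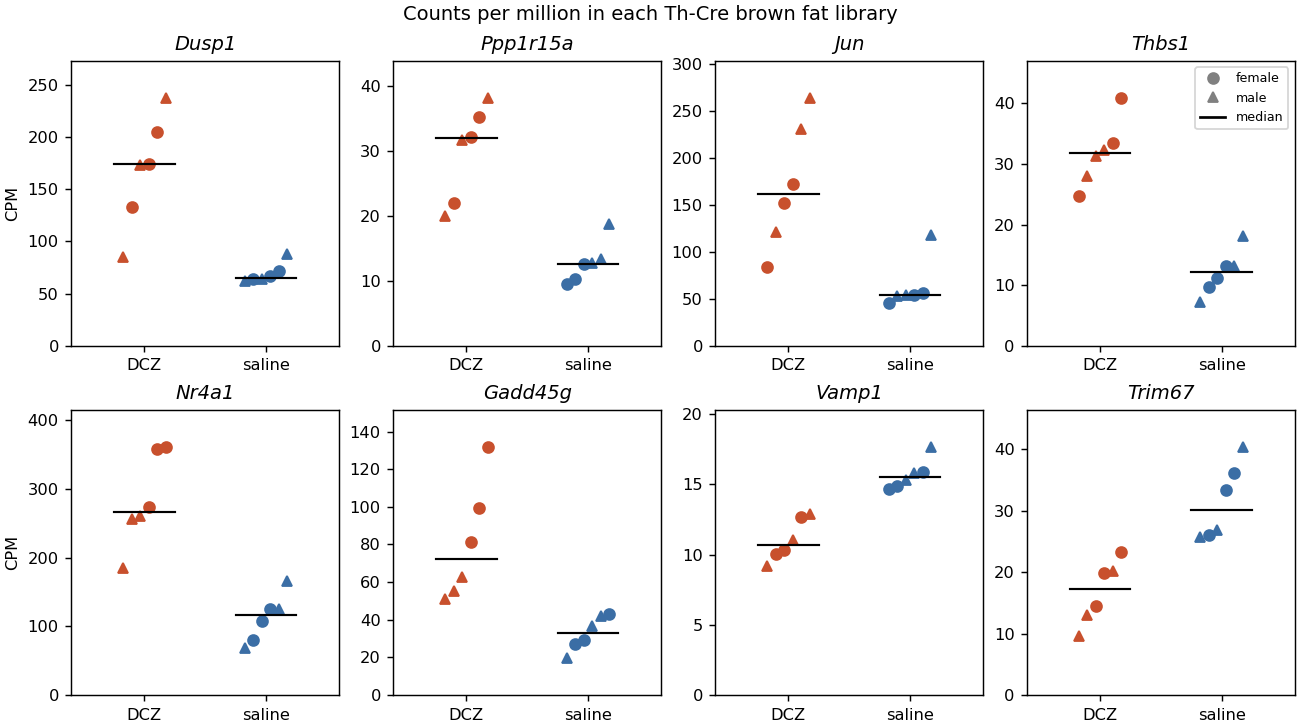
CPM (y, from 0) of 8 genes in the 6 Th-Cre DCZ (left, red) and 6 Th-Cre saline (right, blue) libraries, circles for females, triangles for males, bars for medians. The groups do not overlap in 6 of the panels, and in those of Dusp1 and Jun the highest saline male, DN2087 (87.8 and 118 CPM), lies within the DCZ range.

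Other early transcription factors showed the same direction with wide spread. Nr4a1, an orphan nuclear receptor induced by cAMP in brown fat, had 185 to 360 CPM (median 267 CPM) in Th-Cre DCZ libraries, against 67.7 to 166 CPM (median 116 CPM) in Th-Cre saline libraries, and the groups did not overlap. Its log2 fold change was 1.39 ± 0.336 (adjusted p = 0.162). Its relatives Nr4a2 and Nr4a3 had log2 fold changes of 0.66 ± 0.266 and 0.88 ± 0.375, each with 3 DCZ libraries above the saline range. Egr1, an immediate early zinc finger factor, had 76.8 to 326 CPM (median 174 CPM) in Th-Cre DCZ and 66.9 to 211 CPM (median 104 CPM) in Th-Cre saline libraries, ranges that overlap for 4 of the 6 DCZ mice. Egr2 had a log2 fold change of 1.38 ± 0.486 (adjusted p = 0.631). Arc, a serum-response gene best known from neurons, was low, at 0.924 to 3.16 CPM in Th-Cre DCZ and 0.454 to 1.05 CPM in Th-Cre saline libraries (log2 fold change 1.47 ± 0.352, adjusted p = 0.157). Irf4, a transcription factor that works with PGC-1α in the thermogenic programme of brown fat, had 59.6 to 274 CPM (median 190 CPM) in Th-Cre DCZ, against 20.5 to 93.7 CPM (median 75.9 CPM) in Th-Cre saline libraries, with 5 DCZ libraries above the saline range (log2 fold change 1.44 ± 0.358, adjusted p = 0.182). Of the 13 tested Egr and serum-response genes, 11 had positive log2 fold changes, 9 were higher at an unadjusted p under 0.05, beside 3.54% of all tested genes, and none rose. Over the 5 immediate early lists together (AP-1; Egr and serum response; Nr4a; MAP kinase phosphatases; Btg, Zfp36 and Gadd45), 37 of 42 tested genes had positive log2 fold changes with a median of 0.67. Of these 42, 2 rose, 30 were higher and 0 lower at an unadjusted p under 0.05, beside 3.54% and 2.13% of all tested genes, and 2 had no overlap between groups, which was the case, in this direction, for 0.206% of all tested genes.

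Genes of stress and growth arrest held several of the leading places. Ppp1r15a codes for GADD34, the subunit that brings protein phosphatase 1 to eIF2α and so lets translation resume after stress. It was the only one of the 3 called genes without overlap, at 20.05 to 38.2 CPM (median 32.0 CPM) in Th-Cre DCZ libraries, against 9.54 to 18.9 CPM (median 12.7 CPM) in Th-Cre saline libraries. It rose by a log2 fold change of 1.23 ± 0.186 (adjusted p = 0.00472). Dnajb9, a chaperone of the endoplasmic reticulum, also had no overlap, with 62.0 to 77.5 CPM in Th-Cre DCZ and 45.6 to 58.2 CPM in Th-Cre saline libraries, a small but even difference (log2 fold change 0.48 ± 0.1, adjusted p = 0.0814). The list as a whole lay near 0: over 21 tested genes of the integrated stress and unfolded protein response the median log2 fold change was 0.051. Of the 21, 13 were positive and 1, Ppp1r15a, rose, beside 50.2% and 0.0229% of all tested genes. Gadd45g, a growth arrest gene known in brown fat as a cold-induced coactivator, had 51.2 to 132 CPM (median 72.1 CPM) in Th-Cre DCZ, against 19.4 to 43.0 CPM (median 33.0 CPM) in Th-Cre saline libraries, with no overlap (log2 fold change 1.27 ± 0.265, adjusted p = 0.0814). Its relative Gadd45b was scarce, at 1.502 to 4.87 CPM in Th-Cre DCZ and 0.366 to 2.20 CPM in Th-Cre saline libraries. Btg2, an antiproliferative early gene, had 82.2 to 207 CPM (median 183 CPM) in Th-Cre DCZ and 35.8 to 112 CPM (median 59.1 CPM) in Th-Cre saline libraries. Its saline maximum was DN2087 again, and 4 DCZ libraries lay above it (log2 fold change 1.40 ± 0.297, adjusted p = 0.0874). Plk3, a stress kinase, had 7.90 to 21.8 CPM in Th-Cre DCZ and 4.54 to 11.9 CPM in Th-Cre saline libraries (adjusted p = 0.136). Zfp36, which destabilises AU-rich mRNAs, had a log2 fold change of 1.12 ± 0.345 (adjusted p = 0.461) with 4 DCZ libraries above the saline range.

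Hspa1a and Hspa1b, the inducible HSP70 genes, had the largest log2 fold changes of the genes named here, 2.60 ± 0.71 and 2.69 ± 0.742, with adjusted p of 0.303 and 0.316. They are near-identical copies, so the split of reads between them is uncertain. Hspa1a had 3.88 to 85.9 CPM (median 17.9 CPM) in Th-Cre DCZ and 2.07 to 11.6 CPM (median 5.10 CPM) in Th-Cre saline libraries, and the spread within the DCZ group came from DN2097 at 85.9 CPM and DN2072 at 36.8 CPM, against DN2091 at 3.88 CPM, all 3 males. Over the 18 tested heat shock chaperones the median log2 fold change was -0.025, 9 were positive and none rose.

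The 30 tested genes of adrenergic signalling had a median log2 fold change of 0.033. Of these, 17 were positive, 4 were higher and 0 lower at an unadjusted p under 0.05, beside 3.54% and 2.13% of all tested genes. None rose, and 2 had all DCZ libraries above all saline libraries, beside 0.206% of all tested genes. Rgs2, which limits signalling through G proteins, had 240 to 421 CPM (median 306 CPM) in Th-Cre DCZ and 145 to 238 CPM (median 195 CPM) in Th-Cre saline libraries, without overlap (log2 fold change 0.64 ± 0.228, adjusted p = 0.646). Sik1, a kinase induced by cAMP that restrains CREB coactivators, had 126 to 245 CPM (median 197 CPM) in Th-Cre DCZ and 65.6 to 150 CPM (median 105 CPM) in Th-Cre saline libraries (log2 fold change 0.98 ± 0.263, adjusted p = 0.277). Per1, a clock gene with cAMP response elements, had a log2 fold change of 0.40 ± 0.181. Of 23 tested acute cAMP and CREB targets 18 were positive, 1, Dusp1, rose, 12 were higher and 2 lower at an unadjusted p under 0.05 (3.54% and 2.13% of all tested genes), and the median was 0.40; this list shares genes with the early lists.

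Several genes of fuel choice lay among the first 30. Pdk4 inhibits pyruvate dehydrogenase and so spares glucose carbon. It had 2046 to 2930.5 CPM (median 2240.3 CPM) in Th-Cre DCZ libraries, against 1381 to 1832 CPM (median 1754 CPM) in Th-Cre saline libraries, with no overlap at a small log2 fold change (0.48 ± 0.114, adjusted p = 0.149). Txnip, which restrains glucose uptake, had 1573 to 2058 CPM in Th-Cre DCZ and 943 to 1577 CPM in Th-Cre saline libraries (log2 fold change 0.52 ± 0.111, adjusted p = 0.0885). Angptl4, an inhibitor of lipoprotein lipase, had 194 to 314 CPM in Th-Cre DCZ and 157 to 278 CPM in Th-Cre saline libraries (log2 fold change 0.47 ± 0.134, adjusted p = 0.366), the saline maximum being DN2094 and the next saline library 194 CPM. Targeting subunits that bring protein phosphatase 1 to glycogen differed in sign. Ppp1r3c had 32.7 to 52.5 CPM (median 43.4 CPM) in Th-Cre DCZ, against 45.6 to 74.8 CPM (median 64.4 CPM) in Th-Cre saline libraries (log2 fold change -0.56 ± 0.116, adjusted p = 0.0814). Ppp1r3g had 1.41 to 6.12 CPM in Th-Cre DCZ, against 0.311 to 1.87 CPM in Th-Cre saline libraries (log2 fold change 1.73 ± 0.45, adjusted p = 0.227). Cyp4b1, a fatty acid hydroxylase, had 38.5 to 111 CPM (median 76.1 CPM) in Th-Cre DCZ and 34.5 to 53.3 CPM (median 45.0 CPM) in Th-Cre saline libraries, with 4 DCZ libraries above the saline range. Hk2, hexokinase, had a log2 fold change of -0.30 ± 0.115, and 17 of 23 tested genes of glucose uptake, glycolysis and the pyruvate gate were negative, with a median of -0.058. Over 19 tested genes of lipolysis and lipid uptake 14 were positive, and the median was 0.097. Of all tested genes 50.2% were positive. G0s2, an inhibitor of the lipase ATGL, had a log2 fold change of -0.52 ± 0.242.

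The thermogenic genes themselves did not pass the test. Ucp1, the uncoupling protein that makes heat in brown fat, had 1752.5 to 3828 CPM (median 2683 CPM) in Th-Cre DCZ libraries, against 2550.3 to 3981 CPM (median 3735 CPM) in Th-Cre saline libraries. Its log2 fold change was -0.34 ± 0.126 at an adjusted p of 0.696, and 3 DCZ libraries lay below the saline range. Ppargc1a, the coactivator PGC-1α, had 19.5 to 51.4 CPM in Th-Cre DCZ and 29.1 to 61.4 CPM in Th-Cre saline libraries (log2 fold change -0.38 ± 0.185). Over 27 tested thermogenic and identity genes 13 were positive, none rose or fell and the median log2 fold change was -0.0054. Clock genes had a median of -0.011 over 18 tested, and Bhlhe40, a repressor of the clock, had a log2 fold change of -0.61 ± 0.207. Thbs1, a secreted matrix protein, had 24.7 to 40.9 CPM in Th-Cre DCZ, against 7.18 to 18.1 CPM in Th-Cre saline libraries, with no overlap (log2 fold change 1.44 ± 0.383, adjusted p = 0.263). Ccn1, a matrix protein that responds to serum, had 32.4 to 96.9 CPM (median 75.6 CPM) in Th-Cre DCZ and 15.2 to 72.8 CPM (median 27.1 CPM) in Th-Cre saline libraries, the saline maximum being DN2087.

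The 6 lower genes of the first 30 had a smaller median log2 fold change, -0.49, against 1.14 for the 24 higher genes. Vamp1, a vesicle fusion protein, had 9.19 to 12.9 CPM (median 10.7 CPM) in Th-Cre DCZ libraries, against 14.6 to 17.6 CPM (median 15.6 CPM) in Th-Cre saline libraries, with no overlap (log2 fold change -0.50 ± 0.094, adjusted p = 0.0537). Trim67, a ubiquitin ligase of the tripartite motif family, had 9.58 to 23.3 CPM (median 17.2 CPM) in Th-Cre DCZ, against 25.7 to 40.3 CPM (median 30.2 CPM) in Th-Cre saline libraries, also without overlap (log2 fold change -0.89 ± 0.174, adjusted p = 0.0571). Smarcd1, a subunit of the SWI/SNF chromatin remodeller, had 19.6 to 21.8 CPM in Th-Cre DCZ and 22.1 to 32.8 CPM in Th-Cre saline libraries, a narrow group just below a wide one (log2 fold change -0.43 ± 0.103, adjusted p = 0.162). Rnpc3, a protein of the minor spliceosome, and Pnrc2, a decapping cofactor, had log2 fold changes of -0.47 ± 0.104 and -0.30 ± 0.0683, with 4 and 5 DCZ libraries below the saline range. Pnrc1, the paralogue of Pnrc2, differed the other way, at 44.0 to 63.8 CPM in Th-Cre DCZ and 40.03 to 48.1 CPM in Th-Cre saline libraries (log2 fold change 0.40 ± 0.0925). Other higher genes of the first 30 were Tmem140, Pdxp, Kcne4, Zfp729a, Atg101 and the annotated pseudogene Gm45551. Of these, Tmem140 had 61.7 to 92.2 CPM in Th-Cre DCZ, against 37.2 to 59.2 CPM in Th-Cre saline libraries, with no overlap (log2 fold change 0.50 ± 0.0969, adjusted p = 0.0571). Pdxp, pyridoxal phosphatase, did not overlap either, at 0.462 to 1.36 CPM in Th-Cre DCZ and 0.178 to 0.439 CPM in Th-Cre saline libraries, levels of few reads.

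Consistency across mice was described by the count of DCZ libraries beyond all saline libraries. All 6 DCZ libraries lay above all 6 saline libraries in 27 of 13129 tested genes (0.206%) and below them in 13 (0.099%). Of the 24 higher genes of the first 30, 8 had no overlap and 18 had at least 5 DCZ libraries above the saline range, and of the 6 lower genes 3 had no overlap and 4 had at least 5 below it; small p and small overlap come from the same values. The DCZ mice differed in how far they stood from saline. DN2075 exceeded every saline library in 24 of the 24 genes, DN2207 and DN2097 in 21 each, DN2072 in 19, DN2205 in 18 and DN2091 in 16. DN2207 had the largest median deviation from the saline mean over these genes, 1.34 on the log2 scale, followed by DN2075 at 1.13 and DN2097 at 1.10. DN2091 and DN2205 had the smallest, 0.56 and 0.61, and were the lowest DCZ library in 10 and 7 of the 24 genes. In the saline group DN2087 had a median deviation of 0.30 and was the highest saline library in 12 of the 24 genes. DN2091 and DN2087 are both among the libraries with muscle transcripts, and so is DN2075, which lies at the other end; the part of muscle tissue in these values was not tested. Removing DN2091 moved 15 more genes past the threshold, Btg2, Gadd45g and Vamp1 among them.

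**Figure D3:**
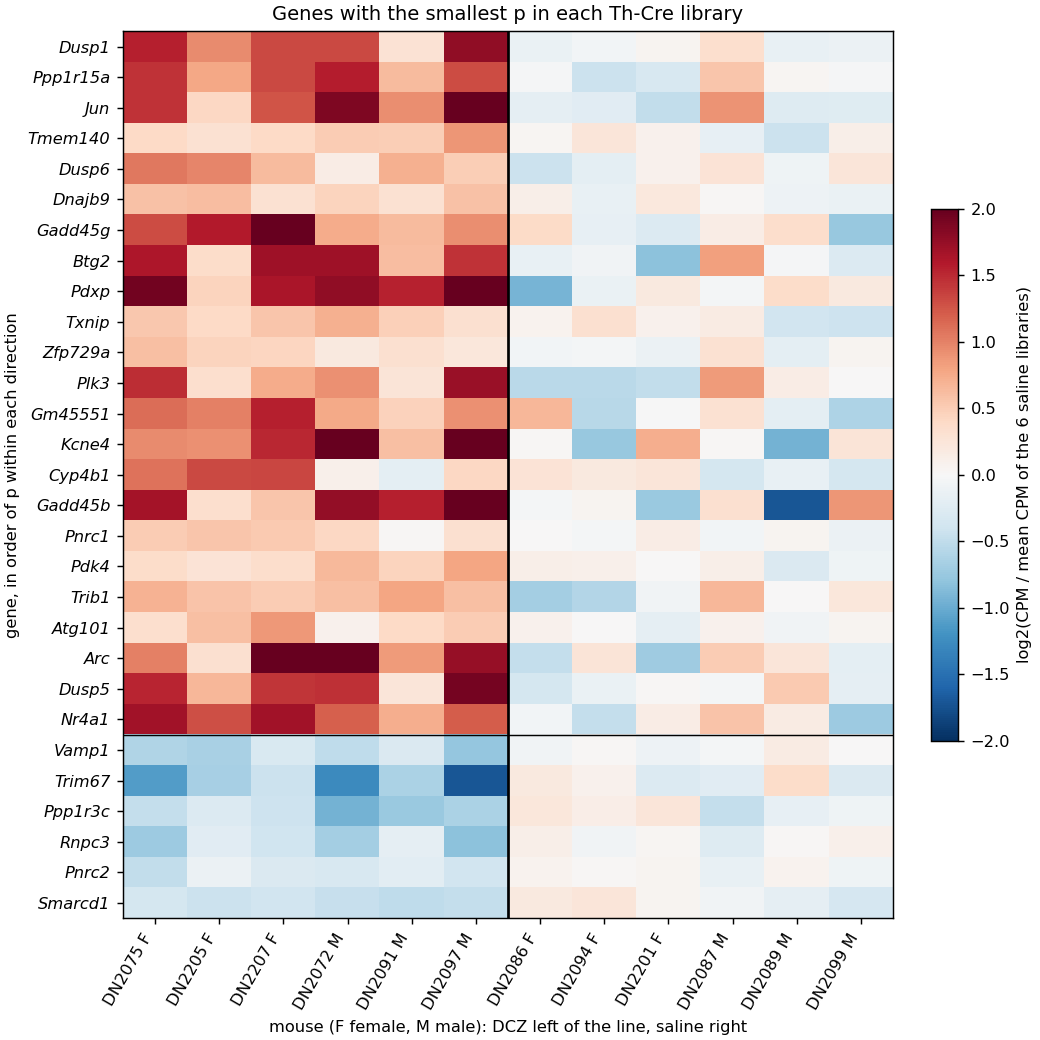
Log2 of CPM over the mean CPM of the 6 saline libraries (colour, capped at 2 in either direction) for 29 of the 30 genes with the smallest p (down) in 6 Th-Cre DCZ (left) and 6 Th-Cre saline (right) libraries. DN2091 and DN2205 are the palest of the DCZ columns in the upper 23 genes, and DN2087 is the reddest of the saline columns.

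Males and females gave the same sign for all 24 higher and all 6 lower genes of the first 30. The log2 fold change was larger in females for 16 of the 24. The 30 were chosen by p over these same mice of both sexes, so the choice favours a shared sign, which is no separate test. Of the 30, 5 were among the 30 smallest p in the fit of males only and 10 in that of females only. No interaction of sex and DCZ passed the test in edgeR, with 903 of 13129 genes at an unadjusted p under 0.05. Among these 30 the smallest adjusted p of the interaction was 0.421, for Tmem140, with log2 fold changes of 0.24 ± 0.116 in females and 0.78 ± 0.117 in males. Dusp6 had 1.07 ± 0.168 in females and 0.31 ± 0.166 in males, with an adjusted interaction p of 0.445. Jun was even, at 1.40 ± 0.335 in females and 1.45 ± 0.332 in males. Hspa1a had 0.97 ± 0.851 in females and 3.72 ± 0.929 in males. Angptl4, outside the 30, had 0.107 ± 0.16 in females and 0.855 ± 0.161 in males, with an adjusted interaction p of 0.413. Sik1, also outside the 30, had 1.48 ± 0.266 in females and 0.269 ± 0.26 in males, with an adjusted interaction p of 0.422. With 3 mice per sex and treatment these errors leave room for sizeable differences between the sexes.

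Genes that varied together from mouse to mouse were sought with Jun, after removing the mean of each group and sex, so that differences between group means do not enter. Over the 12 Th-Cre libraries Pearson's r with Jun was 0.92 for Btg2, 0.90 for Ppp1r15a, 0.85 for Dusp1, 0.82 for Fos, 0.76 for Egr1, 0.74 for Hspa1a and 0.66 for Nr4a1. Values for Txnip, Sik1 and Gadd45b were 0.60, 0.55 and 0.46, and Ucp1 and Vamp1 had -0.67 and -0.38. Spearman's rho was 0.94 for Dusp1, 0.86 for Ppp1r15a, 0.85 for Hspa1a and 0.83 for Btg2. The two-sided permutation p of r, from permutations within group and sex, was 0.0121 for Dusp1, 0.0123 for Btg2, 0.0162 for Fos, 0.0187 for Ppp1r15a and 0.0211 for Hspa1a. Adjusted over the 12 relations these 5 came to 0.0508 each, and none of the 12 was below 0.05; for rho the lowest adjusted permutation p was 0.0625. Leaving out DN2091 and DN2205, the 2 mice farthest from the median in Jun, r was 0.86 for Btg2, 0.81 for Ppp1r15a, 0.77 for Dusp1, 0.75 for Fos and 0.59 for Hspa1a, with permutation p of 0.105 to 0.189. With 10 mice these relations no longer had an unadjusted p under 0.05, while fewer mice also allow fewer arrangements. The genes closest to Jun among 11032 with a mean log2 CPM of at least 1 included Jund (0.96), Csrnp1 (0.95), Ccn1, Cd59b and Sox17 (0.94 each), Hectd3 (0.93), Btg2 (0.92), Hes1 (0.91) and Cdk6 (0.90). Of these, Jund, Csrnp1, Ccn1 and Btg2 also had an unadjusted p under 0.05 for DCZ, and the other 5 had not. They are the upper extremes of 11032 values over 12 libraries, which ran from -0.96 to 0.96. Such a choice can yield high r by itself, and of these genes only Btg2 was tested against Jun. As a description, 18 of 19 higher genes of the first 30 that reach this level had a positive r (median 0.49), as did 32 of 38 early-list genes (median 0.56), against 5459 of all 11032 (median -0.0063). The lower genes had a positive r in 1 of 6 (median -0.59), from -0.88 for Rnpc3 to 0.64 for Smarcd1. Dusp6 (-0.21), Gadd45g (0.29), Dnajb9 (0.22) and Irf4 (0.12) had a weak r with Jun, which was not tested for them. Libraries share depth and scaling across genes, and muscle markers had a median r of 0.33.

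**Figure D4:**
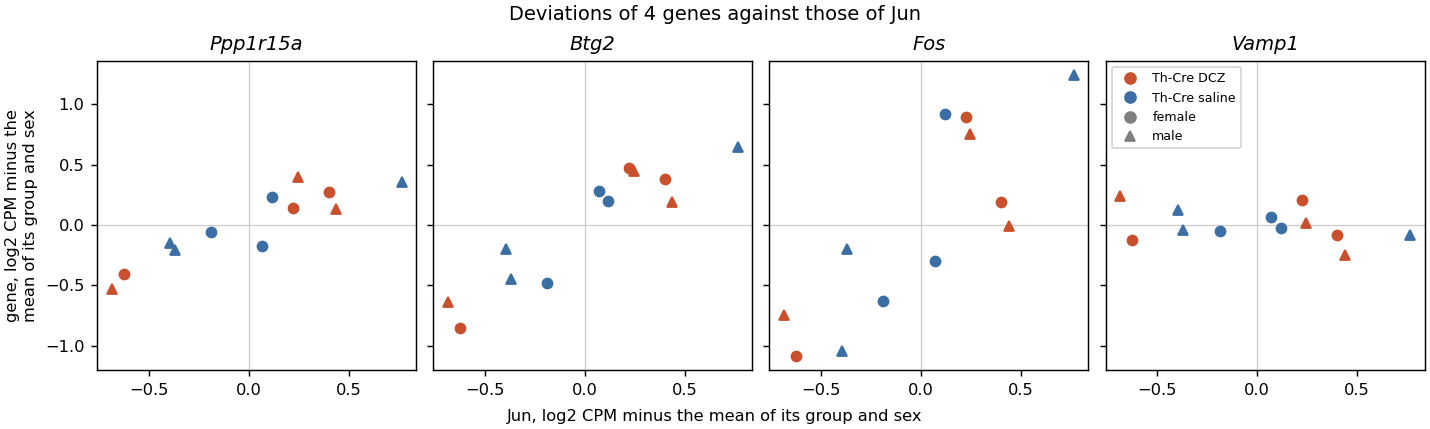
Log2 CPM of Ppp1r15a, Btg2, Fos and Vamp1 (y) against Jun (x), each minus the mean of its group and sex, in 12 Th-Cre libraries (DCZ red, saline blue, circles females, triangles males). Pearson's r with Jun was 0.90, 0.92 and 0.82 for the first 3 genes and -0.38 for Vamp1, and none had an adjusted permutation p under 0.05.

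WT mice, which lack Cre, received the same ligand. Dusp1 had 53.3 to 96.8 CPM (median 77.8 CPM) in WT DCZ, against 70.2 to 112 CPM (median 84.7 CPM) in WT saline libraries. Jun had 40.3 to 71.0 CPM (median 50.6 CPM) in WT DCZ, against 28.1 to 95.6 CPM (median 54.9 CPM) in WT saline libraries. For Dusp1, 2 WT DCZ libraries lay below every WT saline library and none above, and for Jun all 6 WT DCZ libraries lay within the WT saline range. Log2 fold changes in WT mice were -0.18 ± 0.183 for Dusp1, -0.10 ± 0.185 for Ppp1r15a and -0.13 ± 0.221 for Jun. Of the 24 higher genes 9 were positive in WT mice, with a median log2 fold change of -0.11, beside 49.8% of all genes and a median of -0.00075, and none had an adjusted p under 0.05 there. The largest WT values of the 9 were 0.43 ± 0.317 for Pdxp, 0.41 ± 0.162 for Cyp4b1 and 0.31 ± 0.101 for Dnajb9. The 42 early-list genes had a WT median of -0.27, with 10 positive. The WT saline male 9 was the highest WT saline library for Jun (95.6 CPM), Ppp1r15a (27.4 CPM), Btg2 (150.5 CPM) and Nr4a1 (212 CPM). The same held for Egr1 (263 CPM) and Fos (110 CPM), but not for Dusp1 (85.8 CPM). How far this mouse moves the WT fold changes and the interactions was not tested. The difference between genotypes was itself tested. The interaction of genotype and DCZ was 1.45 ± 0.259 on the log2 scale for Dusp1 (adjusted p = 0.0571), 1.33 ± 0.262 for Ppp1r15a and 1.56 ± 0.312 for Jun (adjusted p = 0.136 each), so for none of the 3 did it pass the test. One gene of 13129 (0.00762%) passed it, Arl4d, a small GTPase named here after its values were seen. Arl4d had log2 fold changes of 0.60 ± 0.147 in Th-Cre mice (3.17 to 5.17 CPM after DCZ and 2.20 to 3.83 CPM after saline) and -0.93 ± 0.149 in WT mice, an interaction of 1.53 ± 0.21 (adjusted p = 0.00185). The interaction uses the Th-Cre libraries that gave the values above.

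**Figure D5:**
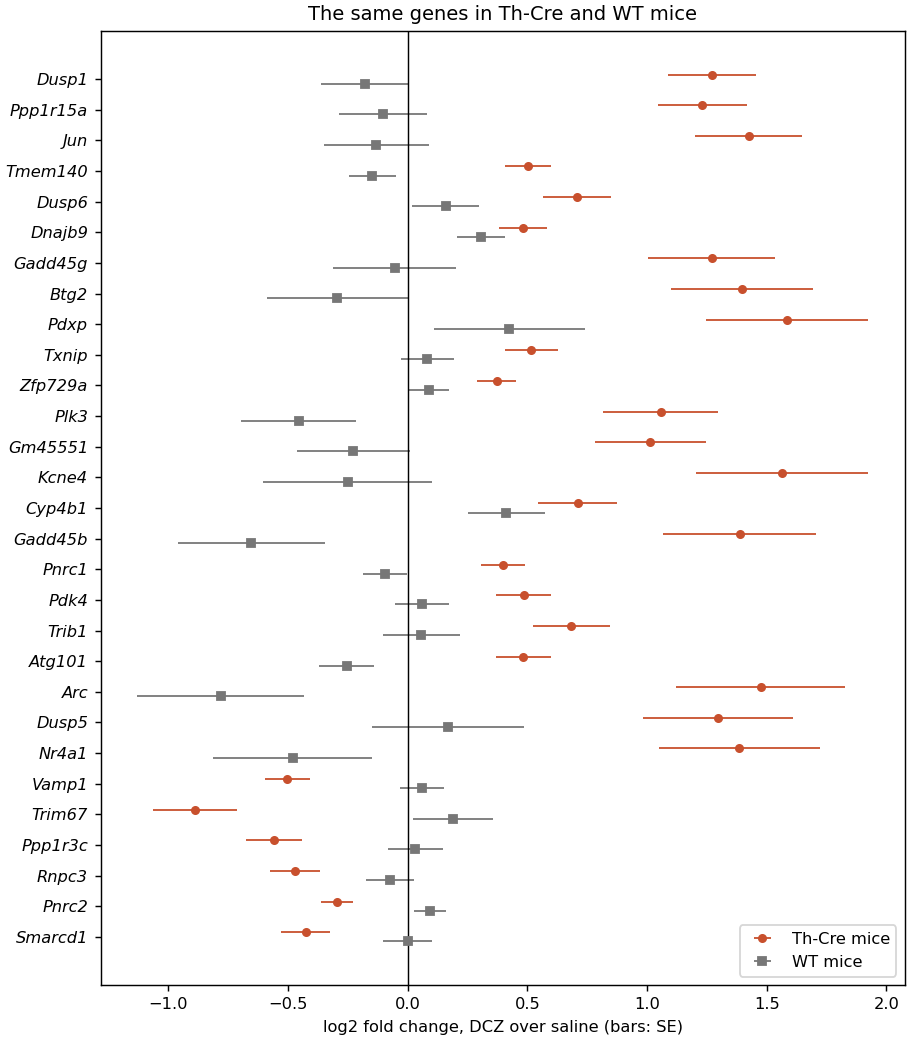
Log2 fold change of DCZ over saline (x, bars SE) in Th-Cre (red circles) and WT mice (grey squares) for 29 of the 30 genes with the smallest p in Th-Cre mice (down). They were chosen on the Th-Cre values, and in WT mice 9 of the 23 higher genes shown and 4 of the 6 lower genes lie on the positive side.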

How the data were processed

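Polyadenylated RNA of interscapular brown fat from 24 mice was sequenced. The tool and build, per the submitters' processing notes, were kallisto 0.44.0 and GRCm38.p6. Which transcripts were used, how they were summed and whether strand counted is not given here, so reads of overlapping genes (Junos with Jun, Tulp2 with Ppp1r15a, Ergic1 with Dusp1) cannot be told apart. The authors deposited estimated counts per gene as whole numbers, tested as deposited, and the percent of reads pseudoaligned, 85.4 to 88.7 in the Th-Cre libraries. The authors also deposited a table of normalized signal per genotype, used only as an alternative. The p-values measure the spread between separate mice.

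Genes were kept with filterByExpr by group (13129 genes, 99.92% of the estimated counts), scaled by TMM and tested with the quasi-likelihood method of edgeR 4.0.16 in R 4.3.3. All 24 libraries entered 1 model with group means and sex, and so share an estimate of the spread (19 residual degrees of freedom, biological coefficient of variation 15.6%). Adjustment was by Benjamini-Hochberg over all tested genes. The SE is the absolute log2 fold change over the square root of F. Log2 CPM used a prior count of 2. The procedure was checked on simulated data. Correlations used 100000 permutations within group and sex (1296 arrangements, smallest possible p 0.000772). Alternatives were other scalings and filters, no term for sex, Th-Cre libraries alone, each sex, leaving out libraries, DESeq2 1.42.0 and limma 3.58.1. GENCODE M21 and the RefSeq promoter table gave positions. Promoters were found for 104 of the 138 genes named by rule.

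The members, the gene lists and the rule were chosen with earlier results of these data known. The rule took the 30 smallest p, the 10 largest log2 fold changes each way at an unadjusted p under 0.05 and a mean log2 CPM of at least 1, up to 4 genes per list, the genes correlated with Jun and the 10 closest to Jun. Some genes that the rule picks, 1 of them among the 30 smallest p, are counted but not reported here.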

Additional observations from a re-analysis of the deposited data

Results flagged for a closer look

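Of 124 groups of 6 values examined for a value far from the others, 14 (11.3%) held one, where chance gives about 5%, and the values are not independent. In 10 of the 14 the far value belonged to the Th-Cre saline male DN2087, with 118 CPM of Jun, 87.8 CPM of Dusp1, 112 CPM of Btg2, 106 CPM of Jund, 72.8 CPM of Ccn1, 27.5 CPM of Fosl2, 211 CPM of Egr1 and 35.2 CPM of Nr4a2, each the highest of the saline group, and with the highest median deviation of the 24 higher genes (0.30) and of the early genes (0.40). The other far values were 92.2 CPM of Tmem140 in the DCZ male DN2097, 200.01 CPM of G0s2 in the DCZ female DN2207, 1.46 CPM of Dusp5 in the saline male DN2089 and 278 CPM of Angptl4 in the saline female DN2094. Arl4d differed between genotypes, with an interaction of genotype and DCZ of 1.53 on the log2 scale.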

How the results depend on the processing

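Against 3 genes called for DCZ in Th-Cre mice, 20 were called without a filter on low counts and 7 with a stricter filter. The Th-Cre libraries alone gave 13, males only 1 (Angptl4), and the fit without libraries with muscle transcripts 7. DESeq2 called 37 and limma on the deposited normalized values 15. Among the 13 by edgeR were Errfi1 (adjusted p = 0.01), Thbs1 and Ppp1r3c (0.0123 each), Nr4a1 (0.0288) and Gadd45g (0.0396). Dnajb9, Fosl2, Cyp4b1 and Smarcd1 had 0.0372 each there. Of these, Ppp1r3c and Smarcd1 were lower after DCZ. Leaving out 1 library gave 3 to 18. Jun had an adjusted p of 0.0514 without the term for sex and 0.125 in females alone, and in males alone the 3 genes had 0.34 to 0.59. Genes without overlap numbered 27 higher and 13 lower, 34 to 69 and 18 to 37 with 1 library left out, and 467 and 300 without the libraries with muscle transcripts, an alternative chosen after seeing the data that leaves 4 DCZ and 3 saline libraries, so that fewer libraries need to be separate. The interaction of genotype and DCZ called 1 gene, 2 without the term for sex, 1 to 6 with 1 library left out and 16 by DESeq2. That of sex and DCZ called 0, and 1 in the Th-Cre libraries alone.

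Of 1360 recomputed log2 fold changes of 57 named genes, 1267 kept their direction and their side of the threshold and 2 changed sign, both in males only (Nr4a2 -0.12, Adipoq -0.055). The other scalings moved the median of all genes by less than 0.01. Other causes of these moves were not tested. No paired analysis was possible because the mice carry names that no 2 groups share. A gene of about 1 CPM rests on few reads per library, so its fold change is loose.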
